A study of Mus musculus with 4 samples.

Results

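The 16S ribosomal RNA is the large rRNA of the mitochondrial ribosome and the product of mt-Rnr2 (NCBI gene 17725), which the RefSeq table of the mouse assembly GRCm38.p6 places on chromosome MT between the genes of the valine and leucine (UUR) transfer RNAs, with a length of 1582 nucleotides. Its members here are the cytosines that the deposited mtDNA table lists on the plus strand, the coding strand of the gene, within the annotated gene. They numbered 304 of 5988 listed cytosines, ran from position 1095 to 2664, and lie in a non-coding RNA with no introns or UTRs. The table's own positions are used, and nucleotides of the gene are counted from its annotated start.

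The 16S rRNA is cut out of a long heavy-strand transcript in which transfer RNAs flank it, and in the ribosome it forms the site of peptide bond formation. Mammalian 16S rRNA is known to carry an N1-methyladenosine, ribose methylations and a pseudouridine, whereas the established 5-methylcytosine (m5C) of the mammalian mitochondrial rRNAs, made by NSUN4, is in the 12S rRNA. NSUN2 is a cytosine methyltransferase known mainly for tRNA sites. The series title concerns tRNAs, so the 16S rRNA is here an RNA in which the same libraries can be searched for m5C with and without NSUN2.

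RNA came from mouse liver lysate enriched for mitochondria, from 2 wild-type libraries and 2 libraries of the genotype labelled NSUN2-/-. Bisulfite turns cytosine into uracil and leaves m5C as cytosine, so the methylation level of a position is its share of reads that keep a cytosine. Strain, sex, age, the type of Nsun2 allele and whether libraries came from separate animals are not given in the sources used here, so the spread between libraries may be technical. The table holds mtDNA positions only, and neither liver markers nor Nsun2 itself could be checked in it. The genotype check used here is position 11588 of TrnH, the histidine tRNA. It has the highest wild-type level among cytosines with at least 10 reads in each wild-type library. It was chosen for that level, so only its knockout reads bear on the genotype. There 271 of 272 wild-type reads were methylated, against 6 of 36 in knockout replicate 1 and 0 of 2 in knockout replicate 2. For knockout replicate 2 the check thus rests on 2 reads.

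Before bisulfite treatment the RNA was passed through Ribo-Zero Gold, a kit that removes cytoplasmic and mitochondrial rRNA, so the 16S reads are those left after depletion. Of 89915, 45449, 99431 and 453470 stranded calls, given here and below in the order wild type replicate 1, wild type replicate 2, knockout replicate 1, knockout replicate 2, the 16S cytosines took 1058, 640, 1115 and 810 (a call is 1 read at 1 cytosine). These were 1.18% and 1.41% of the calls in wild type and 1.12% and 0.179% in the knockout. Knockout replicate 1 was slightly below, and knockout replicate 2 far below, the lower wild-type value. The mean share was 1.29% ± 0.164 (SD, n = 2) for wild type against 0.650% ± 0.667 (SD, n = 2) for the knockout. The two-sided exact permutation p was 0.333, the smallest possible for 2 against 2 libraries. In knockout replicate 2 79.9% of the calls fell on 2 positions of mt-Rnr1, the gene of the 12S rRNA, against 20.5% to 22.7% in the other libraries. Without these positions the shares were 1.52% and 1.78% in wild type and 1.41% and 0.889% in the knockout. The difference of mean shares, -0.642 points, was -0.171 points without knockout replicate 2. All positions of mt-Rnr1 together took 50.1% and 45.9% of the calls in wild type and 39.9% and 93.8% in the knockout. Of the calls outside mt-Rnr1, the 16S rRNA took the largest share in knockout replicate 2 and the smallest in knockout replicate 1. On that base the genotypes overlapped. Less 16S rRNA in the liver, a more complete removal of it by the kit and more calls on other genes cannot be told apart in such a share.

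Reads per cytosine were few in every library. The mean was 3.48 and 2.11 in wild type and 3.67 and 2.66 in the knockout, the median was 1, 0, 1 and 0, and the highest value was 22, 22, 24 and 49. By mean reads per listed sense cytosine, mt-Rnr2 ranked 17th, 14th, 16th and 8th of 37 mitochondrial genes in these libraries. The 12S rRNA had means of 240, 111, 211 and 2262 reads per cytosine but medians of 0, 0, 1 and 0, its reads being gathered on a few positions. No read fell on 123 and 177 of the 304 cytosines of the 16S rRNA in wild type and on 111 and 188 in the knockout, and 62 cytosines (20.4%) had no read in any library.

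Reads were gathered in a few blocks of the 16S rRNA. Runs of successive cytosines with at least 10 reads over all libraries formed 7 blocks with 79 cytosines, and these 26.0% of the members held 83.2% of the 3623 calls. The largest blocks covered nucleotides 64 to 141 (positions 1157 to 1234, 12 cytosines), 389 to 454 (positions 1482 to 1547, 11 cytosines) and 668 to 777 (positions 1761 to 1870, 29 cytosines). Together these 3 blocks held 71.6% and 81.9% of the 16S calls in wild type and 57.5% and 84.6% in the knockout. All 3 lie before nucleotide 791, the middle of the gene, and the part up to it took 76.2%, 85.6%, 62.2% and 88.3% of the 16S calls. The smaller blocks lay at nucleotides 899 to 914, 949 to 997, 1154 to 1188 and 1260 to 1268.

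**Figure D1:**
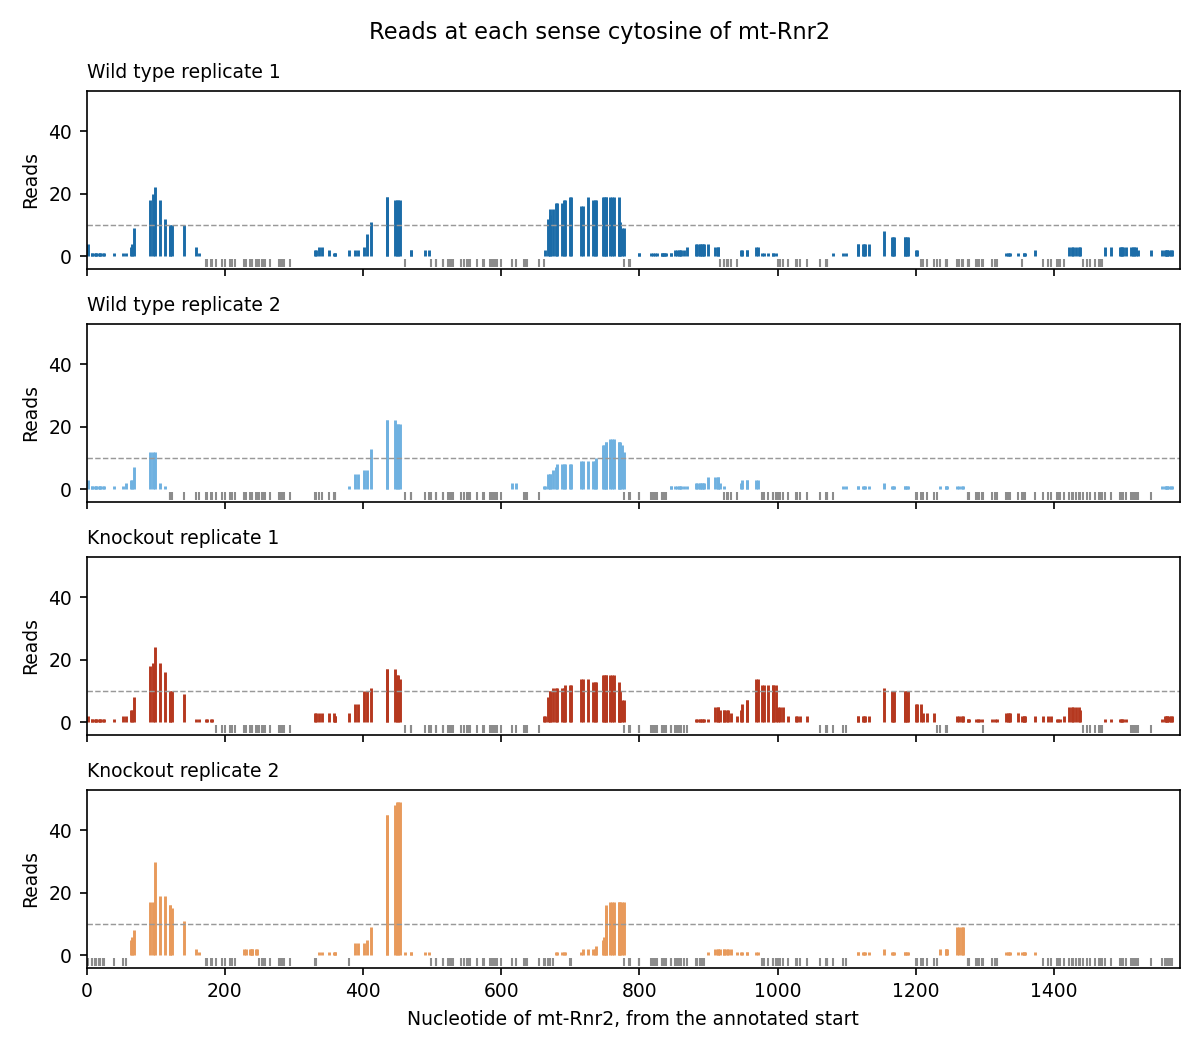
Reads at each of the 304 sense cytosines of mt-Rnr2 (vertical axis, number of reads) against the nucleotide of the gene (horizontal axis), 1 panel per library; grey ticks under the axis mark cytosines without a read and the dashed line marks 10 reads. The 3 largest blocks, all before nucleotide 791, hold reads in each panel. Columns are low in part of the first block in wild type replicate 2 and in part of the third in knockout replicate 2. Knockout replicate 1 also has up to 14 reads at nucleotides 949 to 997. The highest column, 49 reads, is in knockout replicate 2.

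The 3 blocks, which were set on reads summed over the libraries, held reads in each library, but their relative heights differed. The block at nucleotides 389 to 454 held 12.8% and 25.6% of the 16S calls in wild type and 12.4% and 38.4% in the knockout. The block at nucleotides 668 to 777 held 45.1% and 48.1% in wild type, 31.6% in knockout replicate 1 and 24.1% in knockout replicate 2. At the former the genotypes overlapped, and at the latter the knockout libraries had the lower shares, which 2 against 2 libraries cannot separate below an exact permutation p of 0.333. At nucleotides 949 to 997, knockout replicate 1 had 120 calls, against 18 and 15 in wild type and 5 in knockout replicate 2. At nucleotides 1260 to 1268, knockout replicate 2 had 36 calls, against 0 and 4 in wild type and 8 in knockout replicate 1. Across the 304 cytosines, which share reads with their neighbours, Spearman's rho of the read counts was 0.70 between the wild-type libraries, 0.57 between the knockout libraries and 0.47 to 0.67 between genotypes.

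Sharp edges of coverage recurred in every library. At position 1870 (nucleotide 777) there were 9 and 12 reads in wild type and 7 and 17 in the knockout, and at the next nucleotide, position 1871, there were 0 in each library. At position 1547 (nucleotide 454) there were 18 and 21 reads in wild type and 14 and 49 in the knockout, and 6 nucleotides further, at position 1553, there were 0, 0, 0 and 1. Of the 24 pairs of neighbouring 16S cytosines with at least 5 reads in every library at the former, these 2 were the ones at which coverage fell by at least 80% in each library, and none of 24 pairs rose that sharply. By the same rule, which was set after the profile was seen, 1 of 7 pairs in mt-Rnr1 and 5 of 92 pairs on the plus strand of mRNA genes fell.

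Other edges belonged to single libraries. In the block at nucleotides 668 to 777, knockout replicate 2 had 0 to 6 reads at the 19 cytosines up to nucleotide 749 and 15 to 17 reads at the 10 cytosines from nucleotide 751 on. The other libraries showed no such step, with 12 to 19, 5 to 14 and 8 to 15 reads before it and 9 to 19, 12 to 16 and 7 to 15 reads after it, in wild type replicate 1, wild type replicate 2 and knockout replicate 1. In the block at nucleotides 64 to 141, wild type replicate 2 went from 12 reads at position 1192 (nucleotide 99) to 2 at position 1199 and 0 at position 1213, where the other libraries still had 10, 10 and 16. Nucleotides 498 to 599, with 25 cytosines, were the longest run without a read in any library.

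**Figure D2:**
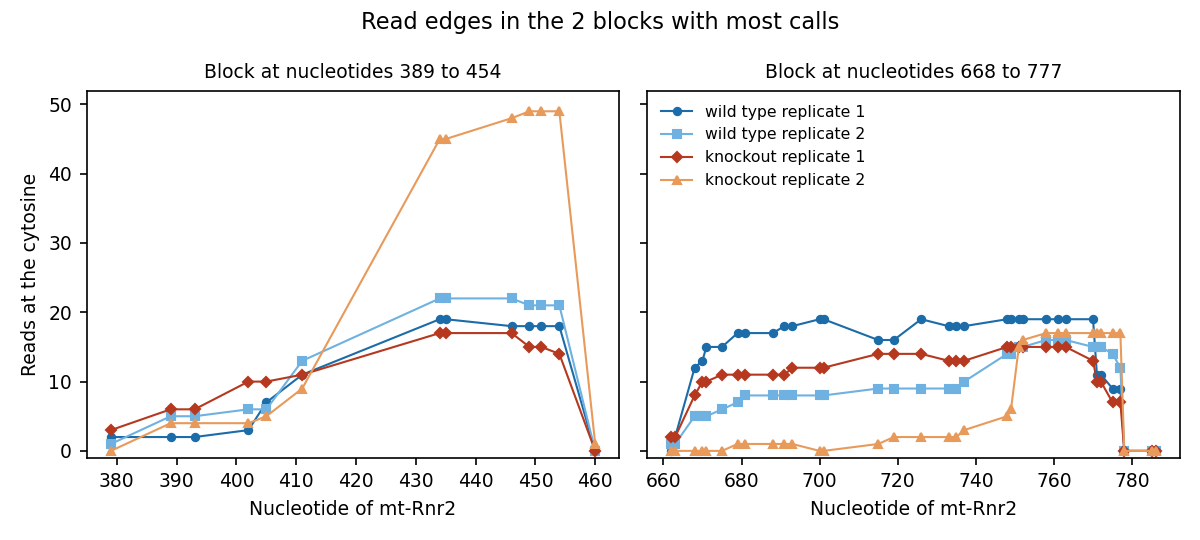
Reads at each cytosine (vertical axis) against the nucleotide of mt-Rnr2 (horizontal axis) for the 2 blocks with the most calls, 1 line per library. Coverage ends after nucleotide 454 in the left panel and after nucleotide 777 in the right panel in each of the 4 libraries, and in the right panel knockout replicate 2 rises between nucleotides 749 and 751.

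Almost no 16S call was methylated. Of the 3623 calls, 3 were: none of 1058 in wild type replicate 1, 1 of 640 in wild type replicate 2, none of 1115 in knockout replicate 1 and 2 of 810 in knockout replicate 2. The levels of replicate 2 were 0.156% in wild type (exact 95% interval 0.00396% to 0.867%) and 0.247% in the knockout (0.0299% to 0.889%). The calls of replicate 1 allow levels of up to 0.284% in wild type and 0.269% in the knockout, the values that 3 methylated calls would give. Intervals and limits cover counting error only, and neighbouring cytosines are read by the same molecules, so they are too narrow: the 3015 calls in the 7 blocks came from positions whose highest counts add up to 330.

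The 3 methylated calls fell on 3 different cytosines. Position 1199 (nucleotide 106) had no methylated read among 18 and 2 wild-type reads, none among 19 of knockout replicate 1 and 1 among 19 of knockout replicate 2 (5.26% in knockout replicate 2, interval 0.133% to 26.0%). Position 1539 (nucleotide 446), the cytosine with the most reads, had none among 18 and 22 wild-type reads, none among 17 of knockout replicate 1 and 1 among 48 of knockout replicate 2 (2.08% in knockout replicate 2, interval 0.0527% to 11.1%). Position 1851 (nucleotide 758) had none among 19 reads of wild type replicate 1, 1 among 16 of wild type replicate 2 (6.25%, interval 0.158% to 30.2%) and none among 15 and 17 knockout reads. Each of the 3 thus rested on 1 read of 1 library, and the partner library of the same genotype had none.

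None of the 3 is in a CpG dinucleotide, here a listed cytosine followed by one on the minus strand at the next position. The 38 members in a CpG had 0 methylated of 400 calls, which allows a level of up to 0.750%, and the other 266 had 3 of 3223 (0.0931%, interval 0.0192% to 0.272%). The intervals of these shares overlap, and the difference was not tested.

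Whether these levels exceeded incomplete conversion was asked by comparison with mitochondrial mRNAs of the same library. Over the 47 members with 10 or more reads in the sum of each genotype (15.5% of 304, with 69.5% of the 16S calls), the level was 0% and 0.200% in wild type and 0% and 0.301% in the knockout. Over the 175 sense mRNA cytosines that met the same minimum it was 0.174% and 0.0728% in wild type and 0.0793% and 0.0779% in the knockout. The 16S level was thus below the mRNA level in both libraries with replicate number 1 and above it in both with number 2. Fisher's exact test on summed calls, two-sided, gave p = 0.635 and 0.327 in wild type and p = 1.00 and 0.113 in the knockout, so in none of the libraries was a difference detectable at this depth. The test treats calls as independent, although neighbouring cytosines share reads, and it covers counting error only. The mean difference was 0.0243 points ± 0.183 (SD, n = 4), and its sign was not stable. It was -0.0374 points without knockout replicate 2 and -0.00325 without wild type replicate 2, 0.0737 without wild type replicate 1 and 0.0958 without knockout replicate 1, and -0.185 with antisense cytosines of the mRNA genes as background. At the mRNA level of each library, the 2517 calls at these 47 cytosines would hold 2.66 methylated calls, and 3 were seen. The 30 cytosines of the 12S rRNA with the same minimum had 0.100%, 0.0721%, 0.0533% and 0.0790%.

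**Figure D3:**
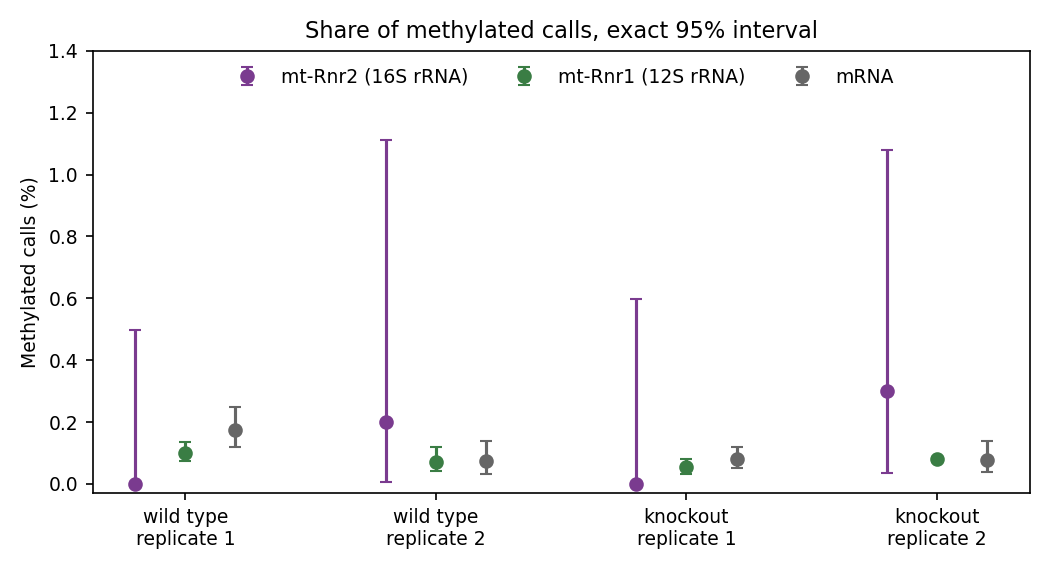
Methylated calls in percent (vertical axis) per library over cytosines with at least 10 reads per genotype in mt-Rnr2, mt-Rnr1 and the mRNA genes; points are shares of summed calls and bars are exact 95% binomial intervals. The points of mt-Rnr2 lie between 0% and 0.301%, and its wide bars include the mRNA value in each library.

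Single sites were tested against the mRNA level of the same library with a one-sided exact binomial test, adjusted by Benjamini-Hochberg over every stranded cytosine of the table with at least 10 reads in that library. No 16S cytosine passed an adjusted p of 0.05, among 43 and 23 tested in wild type and 59 and 25 in the knockout. Of all cytosines tested, 1.33% and 1.28% passed in wild type and 0.398% and 0.952% in the knockout. In both libraries of wild type 1.34% passed and in both of the knockout 0%, and none of these was a 16S cytosine. The lowest adjusted p-values of the exact binomial test were 0.518 at position 1851 (unadjusted 0.0116) and 0.617 at position 1199 (unadjusted 0.0147), and position 1539 had an adjusted p of 1.00 (unadjusted 0.0367). An unadjusted p under 0.05 was thus reached at all 3 cytosines with a methylated read, since at 16 to 48 reads a single methylated read already passes it.

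The knockout was compared with wild type at each cytosine with the quasi-likelihood test of edgeR, fitted to all 482 cytosines of the table that had at least 10 reads per genotype. Among the 47 members tested, 0 were lower and 0 were higher in the knockout at an adjusted p of 0.05 and a difference of at least 10 points, against 0.622% lower and 0% higher over the whole table. None had an unadjusted edgeR p under 0.05, and 0 were called by limma on log2 odds or by Fisher's exact test on the reads of each genotype. At 44 of the 47 members (93.6%) both genotypes had a level of 0, and so a difference of 0. The difference was 0 at 76.8% of the 482. These include cytosines of mt-Rnr1 and of mRNA and tRNA genes with far more reads, so the 2 shares are not at like depth. The median difference was 0 over the members and over the 482 cytosines.

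The differences of group means were 2.63 points at position 1199, 1.04 points at position 1539 and -3.12 points at position 1851 (edgeR unadjusted p = 0.626, 0.519 and 0.510, adjusted p = 1.00 for each). Each comes from 1 library with 1 methylated read. At position 1199 the knockout mean was 2.63% ± 3.72 (SD, n = 2), at position 1539 it was 1.04% ± 1.47 (SD, n = 2), and at position 1851 the wild-type mean was 3.12% ± 4.42 (SD, n = 2). The other genotype had 0 in each case. Of the 47 members, 9 had no read in 1 library, whose level then does not enter the mean, and 17 had fewer than 5 reads in knockout replicate 2. Libraries weigh alike in a mean whatever their reads, so at such cytosines a library with few reads counts as much as its partner.

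Summed over the 47 members, wild type had a level of 0.100% ± 0.142 (SD, n = 2), and the knockout one of 0.151% ± 0.213 (SD, n = 2). The difference of 0.0504 points was smaller than either SD (two-sided exact permutation p = 1.00). It changed sign without wild type replicate 1 (-0.181 points) and without knockout replicate 2 (-0.107 points). It was 0.163 points without wild type replicate 2 and 0.169 points without knockout replicate 1. A direction of change in the 16S rRNA can therefore not be given.

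Depth sets what these zeros can show. Among the 47 members, wild type had 0 methylated reads at 46, on 10 to 41 reads (median 26). These allow a level of up to 7.32% at the deepest cytosine, with a median limit of 11.5%. The knockout had 0 at 45, on 10 to 64 reads (median 21), with a limit of 4.69% at the deepest and a median limit of 14.3%. The most reads without a methylated one were at positions 1527, 1528, 1542 and 1544 (nucleotides 434, 435, 449 and 451), each with 0 of 103 reads over the 4 libraries and a limit of 2.91%. At nucleotides 64 to 141 the best covered cytosine, position 1192 (nucleotide 99), had 0 of 88 reads methylated and a limit of 3.41%.

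With reads summed over all libraries, 41 of the 304 members (13.5%) had 0 methylated reads and a limit of at most 10%, 59 (19.4%) of at most 20% and 110 (36.2%) of at most 50%. In wild type alone the counts were 16, 40 and 73, and in the knockout 15, 36 and 84. No read was present at 110 members in wild type and at 94 in the knockout. For most of the 16S rRNA, its 3′ part in particular, a partly methylated cytosine was therefore not detectable at this depth, and of 1582 nucleotides only the blocks named above were examined to any depth.

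**Figure D4:**
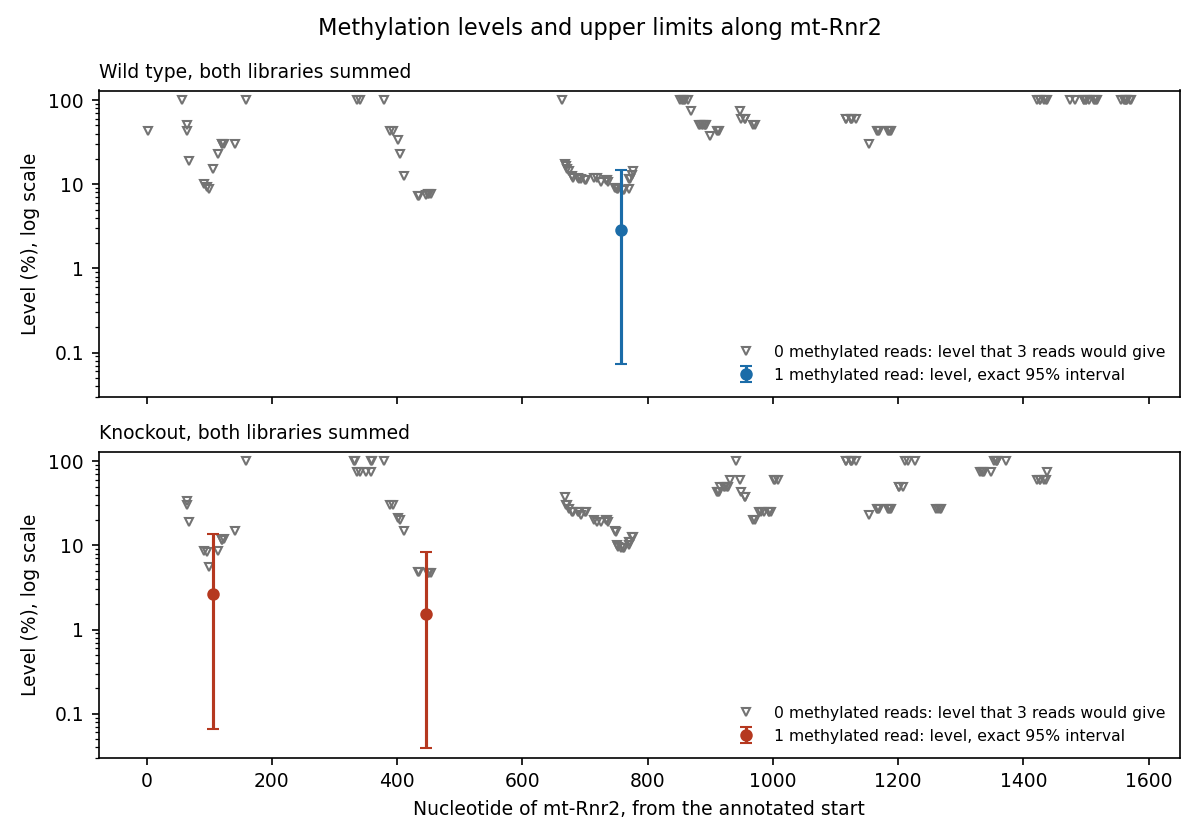
Methylation level in percent on a log scale (vertical axis) against the nucleotide of mt-Rnr2 (horizontal axis), wild type above and knockout below, with the reads of both libraries summed. Open triangles are cytosines with 3 or more reads and 0 methylated, drawn at the level that 3 methylated reads would give, and filled points are the cytosines with 1 methylated read and their exact 95% interval; the lowest triangles are at 7.32% in wild type and 4.69% in the knockout.

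Just inside the coverage minimum of 10 reads per genotype, position 2247 (nucleotide 1154) had 10 wild-type and 13 knockout reads, and position 1763 (nucleotide 670) had 18 and 10. Just outside it, position 1495 (nucleotide 402) had 9 and 14 reads, and position 1761 (nucleotide 668) had 17 and 8. None of these 4 cytosines had a methylated read. The number tested depended on 2 libraries: without wild type replicate 1 it fell from 47 to 23 and without knockout replicate 1 to 25, with 0 members called in either case.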

How the data were processed

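Per the file headers, the deposited values are raw read counts at listed mtDNA positions, split into m5C and C for every library (2 wild type, 2 knockout), without normalization or pooling by the authors. Per the labels' protocols, RNA was depleted with Ribo-Zero Gold, treated with DNase, put through 3 bisulfite cycles and made into small RNA libraries. Trim Galore and Bismark, without versions, are named in the submitters' processing notes. The build named there, GRCh38, is human although the samples are mouse. How reads with several matches were treated is not given either. Gene bounds came from the RefSeq table of GRCm38.p6, and the coding strands of genes from textbook knowledge. The 27 positions without a strand were left out.

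The members and lists were chosen with earlier results of these data known. Coverage was the sum of both columns. Levels were compared in edgeR 4.0.16 (R 4.3.3; terms for library, methylation state and genotype by methylation state, dispersion without a trend), fitted and adjusted over all 482 cytosines with at least 10 reads per genotype. Alternatives were limma 3.58.1 on log2((methylated + 0.5)/(unmethylated + 0.5)), Fisher's exact test, a replicate block, other coverage minimums and backgrounds, and leaving out each library. Exact tests and intervals (Clopper-Pearson) used scipy 1.17.1. Scripts were tested on simulated data. Cytosines named were those with a methylated read, the 5 with the most reads, the best covered of each stretch of at least 3 tested cytosines, and 4 beside the coverage minimum. Blocks, edges and the other strand were described after coverage was seen. Over calls per gene, in which a read counts at several cytosines, the wild-type libraries differed (chi-square 3668, 30 degrees of freedom), as did the knockout libraries, so none was counted as a duplicate. Over the highest read counts of the 7 blocks of mt-Rnr2 alone, the wild-type libraries did not differ beyond sampling noise (chi-square 6.43, 6 degrees of freedom, p = 0.377), and the knockout libraries did (chi-square 37.6, p = 1.37e-06).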

Additional observations from a re-analysis of the deposited data

Results flagged for a closer look

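Reads on the strand opposite to mt-Rnr2 belong to none of the 16S values above, although their cytosines with enough reads were among those over which p-values were adjusted. They were more frequent in knockout replicate 2. They made up 0.100% of its calls (454), against 0.0245% and 0.0374% in wild type replicates 1 and 2 (22 and 17) and 0.0282% in knockout replicate 1 (28). In knockout replicate 2, 343 of the 454 calls (75.6%) fell on 6 minus-strand cytosines between positions 2474 and 2503 (nucleotides 1381 to 1410 of the gene), with 53 to 59 reads each. Wild type replicate 1 had 0 to 1 read at these cytosines, wild type replicate 2 had 0 and knockout replicate 1 had 2 to 3. On the sense strand of the same window, knockout replicate 2 had 0 calls. No call on the minus strand of mt-Rnr2 was methylated in any library, which in knockout replicate 2 allows a level of up to 0.661%. The pattern rests on a single library, and its cause was not tested.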

How the results depend on the processing

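The counts of 16S cytosines lower in the knockout, higher in it, or above background in both libraries of a genotype were 0 in every alternative run, among 15 to 68 members tested against genotype. The last count could only be 0, since the 3 methylated reads fell on 3 cytosines, each in 1 library. Where the 10-point minimum applied, the other counts could only be 0 too. The largest difference in any run was -6.25 points, without wild type replicate 1. The labels state no pairing by replicate number, and with a replicate block the count was also 0. The difference between replicates 1 and 2 had a correlation of 0.03 between genotypes over 152 cytosines. At 74 of these the difference between genotypes was 0. With many levels at or near 0, the correlation cannot tell whether the libraries were paired. The difference of the summed level, 0.0504 points, turned to -0.0822 with 30 reads per genotype and -0.0699 with 10 reads in every library, and ran from -0.181 to 0.169 without single libraries; these shifts come from 3 methylated reads. The mean difference from background, 0.0243 points, was -0.185 against antisense cytosines of the mRNA genes and ran from -0.0374 to 0.0958 without single libraries; the cause was not tested. The number of 16S cytosines with enough reads, 47, was 15 at 30 reads per genotype, 17 with 10 reads in every library, 242 with 1 read over all libraries, and 23 to 43 without single libraries. The knockout share of calls stayed below wild type in all 5 alternatives, at -0.171 points without knockout replicate 2 against -0.642 with all libraries. None of these alternatives left out all of mt-Rnr1. That gene took 93.8% of the calls in knockout replicate 2 and 39.9% to 50.1% in the other libraries, so the share also depends on its calls. Of the calls outside mt-Rnr1, the 16S share was highest in knockout replicate 2 and lowest in knockout replicate 1. The lower knockout share is therefore not stable to the calls it is taken from. A low level of m5C at most of the 16S rRNA is beyond this depth.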
